A study of Mus musculus with 20 samples.

Results

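Loss of the integrin gene Itgb7 was examined in the stem cells of the mouse small intestine, using 10 RNA sequencing libraries of the 20 in the series and all 11746 gene entries of their count table. The members were the 5 GFP-high libraries of Itgb7-/- mice (knockout, KO) and the 5 GFP-high libraries of Itgb7+/+ mice (wild type, WT). All animals were C57BL/6J mice of 8 weeks that carried Lgr5-GFP, a reporter driven by a stem cell gene, in both genotypes. WT mice bear the numbers 1, 3, 6, 7 and 8 and KO mice the numbers 2, 3, 4, 5 and 6. Crypts of the small intestine were loosened with EDTA and digested with TrypLE. Viable EpCAM+ cells that were negative for CD45, CD31 and TER119 were then sorted on high GFP, so lymphocytes, endothelium and red cells were gated out. The labels give the Itgb7-/- genotype with no limit to a cell type, so the sorted cells came from animals that lacked the gene elsewhere as well. Another 10 libraries, of GFP-low cells from the same numbered mice, were used for comparison.

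Lgr5+ stem cells lie at the base of the intestinal crypt between Paneth cells and are held in the stem cell state by Wnt and Notch signals. Their daughters divide in the transit-amplifying zone and become absorptive enterocytes, or secretory goblet, enteroendocrine, tuft or Paneth cells once Notch signalling is lost and the factor Atoh1 is made. Itgb7 encodes integrin beta 7, which pairs with the alpha 4 chain on lymphocytes that home to the gut and with the alpha E chain on intraepithelial lymphocytes, where it binds E-cadherin on epithelial cells. Itgb7 transcript is not analysed here, and the genotypes rest on the labels alone.

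Total counts ran from 20986069 to 27083283 per library, and no pair of libraries of a group was alike within counting noise. Y-linked transcripts were found in 3 of 5 libraries of each genotype. The stem cell label held for Lgr5, the receptor gene behind the reporter. Its median CPM (counts scaled to the library total) was 93.7 in WT GFP-high and 14.5 in WT GFP-low libraries. In KO GFP-high and GFP-low libraries the medians were 105 and 6.6, with CPM scaled over both populations. Secretory transcripts were uneven within a genotype. The library of WT mouse 7 had the lowest mean of its group for goblet, enteroendocrine, tuft, Paneth and secretory fate genes, and that of KO mouse 5 had the highest of its group for each of these lists except Paneth genes.

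Of 11745 genes tested with edgeR's quasi-likelihood test, 0 (0%) passed a Benjamini-Hochberg adjusted p under 0.05, and the smallest adjusted p was 0.163, shared by 20 genes. Without adjustment, 565 genes (4.81%) were higher and 585 (4.98%) lower in KO at an edgeR p under 0.05. DESeq2 called 143 genes at an adjusted p under 0.05, of which 49 (0.417%) were higher and 94 (0.8%) lower in KO. Levels stood above every WT library in all 5 KO libraries for 118 genes (1%) and below every WT library for 103 (0.877%). The counts for gene lists below use the unadjusted threshold and are read against these shares. The p-values set the difference between genotypes against the spread between separately numbered mice. Fold changes are log2 of KO over WT with the standard error (SE), and levels are CPM given in the order of the mouse numbers, WT 1, 3, 6, 7, 8 and KO 2, 3, 4, 5, 6.

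**Figure D1:**
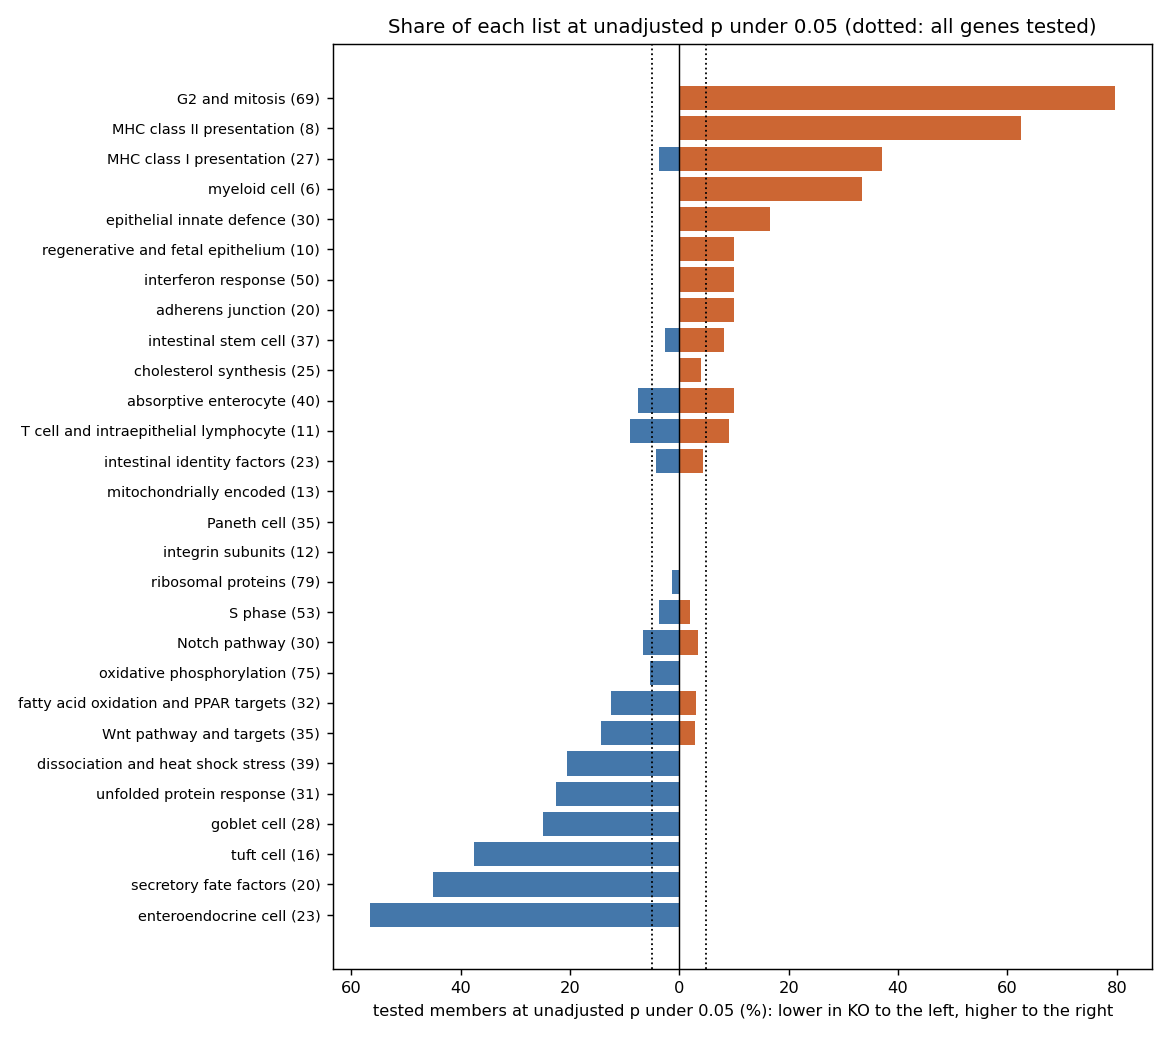
Share of the tested members of each gene list (number of members in brackets) at an unadjusted edgeR p under 0.05, higher in KO to the right and lower to the left, with dotted lines at the shares over all genes tested (4.81% and 4.98%). The G2 and mitosis list stood at 79.7% higher and the enteroendocrine list at 56.5% lower.

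Promoter sequences of 5 genes are shown first because the clearest higher group, genes of G2 and mitosis, and a lower group, the unfolded protein response, are each known for short promoter elements. The DREAM and MuvB complexes act on the cell cycle homology region (CHR, TTTGAA), and the factor NF-Y binds CCAAT boxes. The endoplasmic reticulum (ER) stress elements ERSE (CCAAT and CCACG with 9 bases between them) and ERSE-II (ATTGG and CCACG with 1 base between them) are bound by the transcription factors ATF6 and XBP1. Stretches run from 180 bases before to 20 bases from the start of transcription, 5′ to 3′ on the gene's strand, from RefSeq on GRCm38.p6. Capitals mark CHR letters and CCAAT boxes (ATTGG where the box lies on the other strand) in Hmmr and Ccnb2, CCAAT boxes in Nek2, where no CHR letters were found in the window, and the ERSE or ERSE-II in Hspa5 and Herpud1. Nek2, a centrosome kinase, lies at chr1:191821293-191821492 on the plus strand; Hmmr, which binds spindle microtubules, at chr11:40733418-40733617 on the minus strand; and Ccnb2, a mitotic cyclin, at chr9:70421535-70421734 on the minus strand. Hspa5, the ER chaperone BiP, lies at chr2:34771910-34772109 and Herpud1, a part of ER-associated degradation, at chr8:94386249-94386448, both on the plus strand.
Nek2: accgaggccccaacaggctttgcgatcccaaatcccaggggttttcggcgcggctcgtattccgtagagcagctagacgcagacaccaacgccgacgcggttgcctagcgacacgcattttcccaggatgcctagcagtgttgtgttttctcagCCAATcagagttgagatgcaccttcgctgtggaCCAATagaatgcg
Hmmr: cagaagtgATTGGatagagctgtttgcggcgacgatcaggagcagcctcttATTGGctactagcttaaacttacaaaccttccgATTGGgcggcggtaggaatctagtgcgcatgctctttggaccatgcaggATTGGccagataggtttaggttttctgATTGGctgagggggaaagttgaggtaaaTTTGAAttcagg
Ccnb2: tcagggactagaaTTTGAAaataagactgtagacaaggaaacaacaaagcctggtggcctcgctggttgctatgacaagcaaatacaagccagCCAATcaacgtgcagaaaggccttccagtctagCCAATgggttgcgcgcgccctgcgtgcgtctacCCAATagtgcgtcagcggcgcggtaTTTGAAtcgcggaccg
Hspa5: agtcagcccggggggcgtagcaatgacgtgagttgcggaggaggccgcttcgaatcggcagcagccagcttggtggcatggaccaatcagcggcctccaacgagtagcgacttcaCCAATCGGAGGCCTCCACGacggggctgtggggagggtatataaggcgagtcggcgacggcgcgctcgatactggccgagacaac
Herpud1: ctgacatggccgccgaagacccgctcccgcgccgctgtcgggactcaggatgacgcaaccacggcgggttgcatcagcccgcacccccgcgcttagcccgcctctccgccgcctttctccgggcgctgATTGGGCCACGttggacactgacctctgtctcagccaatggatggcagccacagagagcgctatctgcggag

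Windows of 250 bases before to 50 after the start were available for 8991 of 11728 tested symbols and were searched on both strands. CHR letters were in 43 of 59 promoters of the G2 and mitosis list (72.9%) against 14.4% of all promoters, and CHR together with CCAAT in 34 (57.6%) against 6.12%. Within that list the share with a CHR was 73.3% among members at p under 0.05 (33 of 45) and 71.4% among the others (10 of 14). Outside the list, a CHR was found in 84 of 399 promoters of genes higher at p under 0.05 (21.1%), and in 12.2% of those of lower genes. An ERSE or ERSE-II was present in 11 of 26 promoters of the unfolded protein response list (42.3%) against 0.267% of all promoters. Among members of that list lower at p under 0.05, either element was present in 3 of 6 promoters (50%). The ERSE contains a CCAAT box, so these searches overlap. A match describes letters in a window and is no measured binding site.

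Among the lists, genes of G2 and mitosis had the largest share of members that were higher in KO stem cells. Of the 71 listed genes 69 were tested, 55 were higher at p under 0.05 (79.7%, against 4.81% of all genes) and none was lower. The median difference was 0.38, against 0.01 over all genes, and 68 of 69 values were positive. Every KO library exceeded every WT library for 15 members (21.7%, against 1% of all genes). The mean log2 CPM of the list was 5.88, 6.07, 5.70, 5.98 and 5.64 in WT and 6.41, 6.13, 6.33, 6.09 and 6.19 in KO libraries, with no overlap between the groups. DESeq2 called 20 of the 69 (29%), all higher. In bulk libraries, more cells in G2 or mitosis and more RNA of these genes per cell cannot be told apart.

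Hmmr was at 49.4, 59.98, 43, 50.3 and 45.3 CPM in WT and 72.4, 72.1, 77.7, 66.4 and 66.4 in KO libraries, a log2 fold change of 0.52 ± 0.10. For Nek2 the levels were 32.3, 34.9, 28, 28.5 and 23 in WT and 48.8, 39.8, 45, 43.3 and 44.8 in KO (0.60 ± 0.11). Ckap2, which stabilises spindle microtubules, was at 15, 17.9, 13.1, 18.1 and 13.2 in WT and 26.5, 21.9, 24.7, 22.2 and 21.9 in KO (0.60 ± 0.12). The groups did not overlap for these 3 genes, and Dlgap5, another spindle protein, differed by 0.69 ± 0.14. Ccnb2, chosen after its values were seen, was at 123, 155, 124, 158 and 130.05 in WT and 180.3, 175, 206, 177 and 182 in KO (0.42 ± 0.09), with KO mouse 4 highest. The kinase that drives entry into mitosis, Cdk1, differed by 0.30 ± 0.16, its cyclin Ccnb1 by 0.38 ± 0.12 and the proliferation antigen Mki67 by 0.32 ± 0.13. The one negative value of the list was that of the centromeric histone Cenpa, -0.42 ± 0.21, picked out after its value was seen.

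S phase genes showed few differences. Of 53 tested, 1 was higher and 2 lower at p under 0.05, with a median of 0.00. Leaving out 1 library gave 0 (without WT mouse 6, KO mouse 2 or KO mouse 4) to 6 higher members (without KO mouse 5; 3 without WT mouse 3 or 7), 1 (without WT mouse 7) to 4 lower (without WT mouse 6 or KO mouse 4) and medians from -0.04 to 0.04. On average over its genes, the S phase list had a log2 CPM from 5.33 to 5.59 in WT and from 5.36 to 5.62 in KO libraries. The replication helicase subunits Mcm2 and Mcm5 differed by -0.21 ± 0.10 and -0.07 ± 0.10, and the replication clamp Pcna by -0.09 ± 0.09. Members with the smallest p pointed both ways: Dtl, which targets replication factors for destruction, was at 0.30 ± 0.12, the uracil glycosylase Ung at -0.39 ± 0.13 and the ubiquitin ligase Ubr7 at -0.24 ± 0.10.

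**Figure D2:**
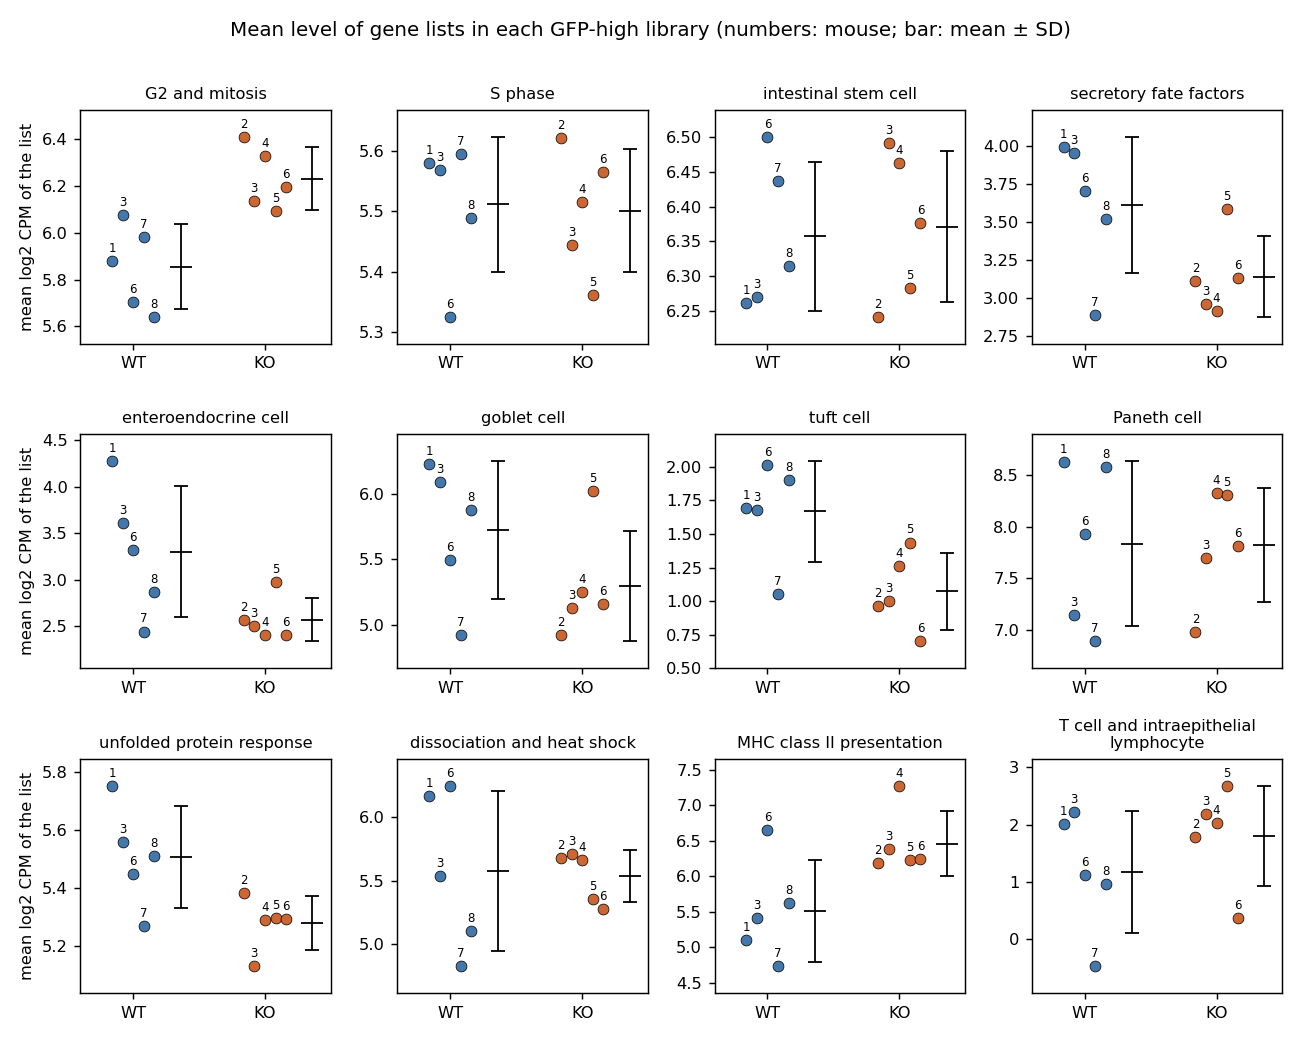
Mean log2 CPM of 12 gene lists in each GFP-high library (points, numbered by mouse) of WT and KO mice, with the mean ± SD of the 5 libraries as bars. WT and KO points are apart for G2 and mitosis (highest WT 6.07, lowest KO 6.09) and overlap in every other list plotted.

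Transcripts of the enteroendocrine lineage, which makes gut hormones, were lower in KO GFP-high libraries. Of 23 tested members 13 were lower at p under 0.05 (56.5%, against 4.98% of all genes), none was higher, and the median difference was -0.94. The list's mean log2 CPM was 4.28, 3.61, 3.32, 2.44 and 2.87 in WT and 2.57, 2.50, 2.41, 2.97 and 2.41 in KO libraries. WT mice 7 and 8 lay inside the KO range, and the WT libraries were spread more widely than the KO libraries. The count was 9 without WT mouse 1, with a median of -0.55, and 18 without WT mouse 7. The list took between 0.0295% and 0.141% of counts in WT libraries and between 0.0485% and 0.0768% in KO libraries.

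Neurog3, the factor that commits crypt cells to the enteroendocrine fate, was at 55.6, 80.9, 37, 17.6 and 27.3 CPM in WT and 19.9, 15.9, 16.5, 31.1 and 19.7 in KO libraries, a log2 fold change of -1.08 ± 0.33. KO mouse 5 exceeded WT mice 7 and 8, so the groups overlap. Isl1, a factor of maturing hormone cells, was at 8.26, 6.97, 6.80, 3.35 and 3.09 in WT and 1.38, 2.80, 2.41, 2.08 and 2.33 in KO libraries (-1.37 ± 0.30), with every KO library below every WT library. The granins of secretory granules were lower too: Chga was at 74.8, 40.6, 57.8, 25.4 and 36.5 in WT and 23.4, 17.2, 20.3, 43.6 and 19.9 in KO libraries (-0.91 ± 0.29). Chgb was at 337, 183, 194, 76.8 and 115 in WT and 69, 80.4, 87.5, 125 and 77.1 in KO (-1.04 ± 0.30). KO mouse 5 was the highest KO library for both granins and overlapped the lower WT libraries. The hormone peptide YY (Pyy) was at 7.97, 5.00, 2.31, 2.06 and 3.87 in WT and 2.22, 1.26, 1.77, 1.54 and 1.40 in KO (-1.37 ± 0.36), the factor Neurod1 differed by -1.01 ± 0.52 and Bex2 by -1.17 ± 0.32.

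Of 20 factors that steer secretory fate, 9 were lower at p under 0.05 (45%) and none higher, with a median of -0.46 and 19 negative values. The list's mean log2 CPM was 3.99, 3.95, 3.70, 2.89 and 3.52 in WT and 3.11, 2.96, 2.92, 3.58 and 3.13 in KO libraries, with WT mouse 7 below every KO library and KO mouse 5 above WT mouse 8. Some of these factors also stand in other lists, so the counts are not independent. The lists concerned are the enteroendocrine, tuft, goblet (Atoh1 and Spdef) and intestinal identity (Foxa3) lists. Foxa3, a forkhead factor of goblet and enteroendocrine cells, was at 73.3, 103, 93.9, 76.6 and 93.5 CPM in WT and 52.8, 70.9, 49.2, 70.7 and 60.3 in KO libraries (-0.53 ± 0.12), and every KO library lay below every WT library. Atoh1, which opens the secretory fate, differed by -0.72 ± 0.32, the goblet and Paneth factor Spdef by -0.49 ± 0.29 and Gfi1 by -0.21 ± 0.39. The count depended on single libraries: it was 3 without WT mouse 1 or KO mouse 4, 5 without WT mouse 3, KO mouse 3 or KO mouse 6, 6 without WT mouse 8 or KO mouse 2, and 14 without WT mouse 7. DESeq2 called Isl1 and Foxa3 of this list.

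Goblet cell genes, whose products form mucus, had 7 of 28 members lower (25%), none higher, 27 negative values and a median of -0.46. DESeq2 called none of the 28, and no member had every KO library below every WT library. Zg16, a lectin of goblet granules, was at 1155, 1544, 736, 606 and 719 CPM in WT and 729, 478, 389, 659 and 330.4 in KO libraries, a difference of -0.88 ± 0.26 with overlapping groups. The trefoil peptide Tff3 differed by -0.77 ± 0.26 and the vesicle protein Rep15 by -0.63 ± 0.23, while the mucin Muc2 and the mucus-processing protein Clca1 stood at -0.31 ± 0.30 and -0.28 ± 0.37. The goblet count also depended on single libraries: 3 members were lower when WT mouse 1, WT mouse 3, KO mouse 2, KO mouse 3 or KO mouse 6 was left out, and 21 when KO mouse 5 was, or 18 when WT mouse 7 was. The goblet median ran from -0.30 without WT mouse 1 to -0.77 without KO mouse 5.

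Tuft cells are chemosensory cells of the epithelium, and 6 of 16 of their genes were lower (37.5%) with none higher and a median of -0.56. Alox5ap, which serves leukotriene synthesis, was at 3.73, 4.27, 4.62, 1.99 and 3.22 CPM in WT and 1.69, 0.700, 1.57, 0.955 and 0.645 in KO libraries (-1.68 ± 0.33). Avil, an actin-binding protein, was at 6.18, 4.11, 4.71, 2.50 and 4.83 in WT and 1.29, 2.01, 2.31, 1.74 and 2.44 in KO (-1.18 ± 0.27). For both genes every KO library lay below every WT library, at low counts. The kinase Dclk1 was at 4.58, 3.87, 5.06, 1.36 and 6.61 in WT and 1.15, 1.26, 1.13, 2.12 and 1.47 in KO (-1.58 ± 0.36); WT mouse 7 overlapped the KO libraries. The tuft cell factor Pou2f3 stood at 0.25 ± 0.41 and the taste channel Trpm5 at -0.62 ± 0.32.

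Paneth cell genes showed no member at p under 0.05 in either direction among the 35 tested. Their median was -0.17. It was positive without WT mouse 1, WT mouse 8 or KO mouse 2, at most 0.06, and lowest without WT mouse 7 at -0.335, where 3 members were lower (1 without WT mouse 3). The list's share of all counts ran from 2.31% to 8.60% in WT and from 2.75% to 6.53% in KO libraries. Lysozyme (Lyz1) differed by -0.10 ± 0.39, the defensin Defa24 by -0.20 ± 0.37, the protease Mmp7 by -0.17 ± 0.31, the guanylin-family peptide Guca2b by -0.45 ± 0.25, Guk1 by -0.16 ± 0.09 and the colipase Clps by -0.64 ± 0.38. Defensin genes are near-identical copies between which shared reads were split, so a single one is uncertain. Absorptive enterocyte genes were 4 higher and 3 lower of 40, with a median of -0.02. Without KO mouse 2 there were 13 lower members with a median of -0.175, and without WT mouse 1 there were 5. The enterocyte median was positive without WT mouse 7 or KO mouse 3, 4 or 6, at most 0.04, and the higher members numbered 1 without WT mouse 8 or KO mouse 5 and 2 without WT mouse 1 or 6 or KO mouse 2 or 3.

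**Figure D3:**
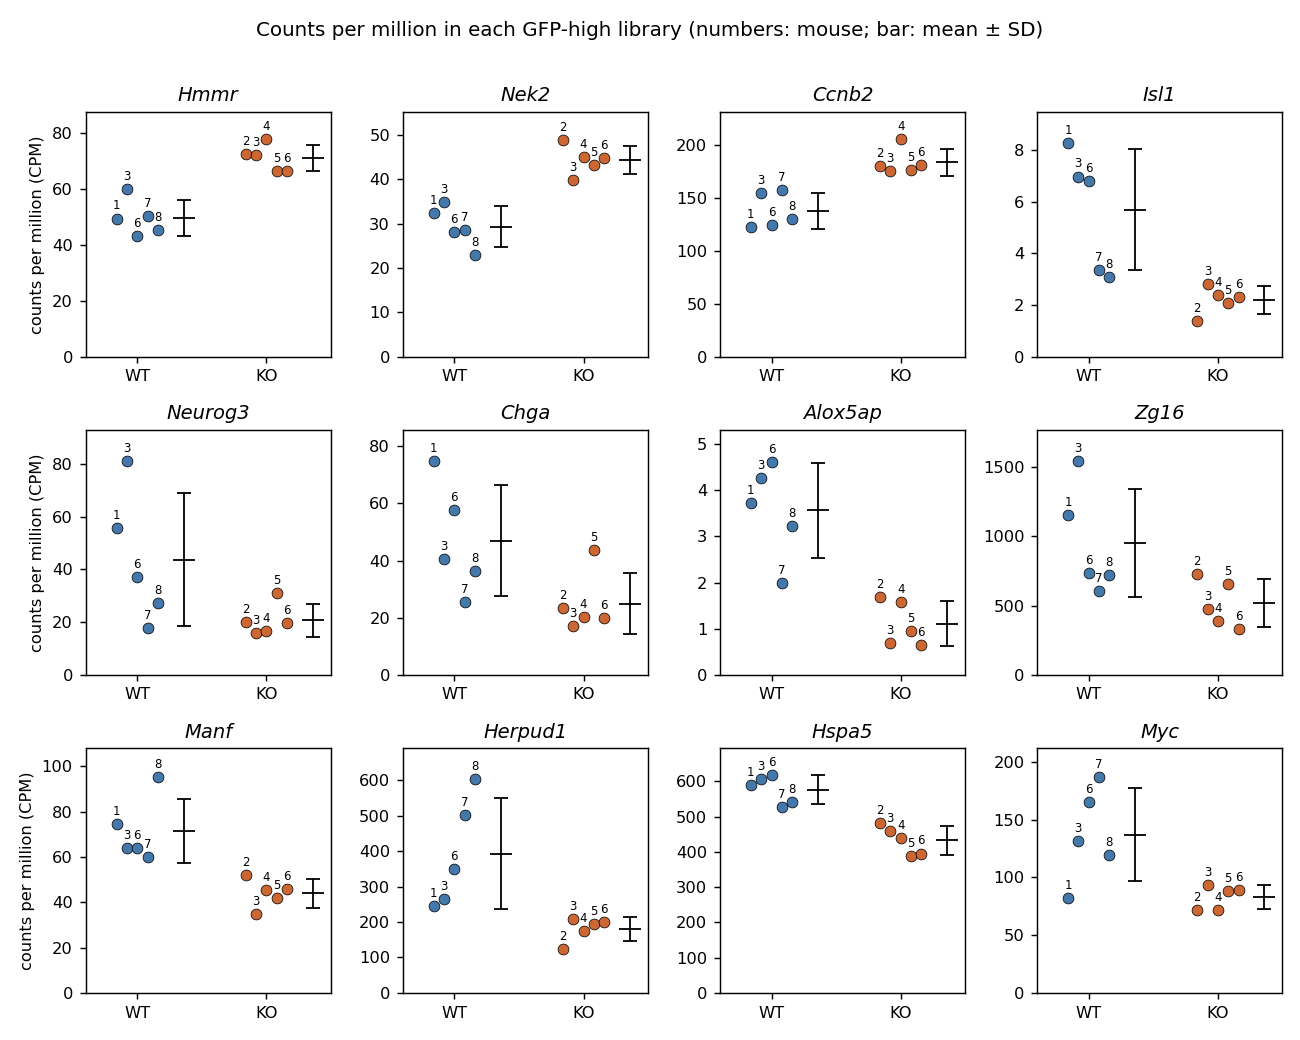
CPM of 12 genes in each GFP-high library (points, numbered by mouse), WT and KO, with the mean ± SD of 5 libraries as bars and the axis starting at 0. Hmmr, Nek2 and Ccnb2 were higher in every KO library than in any WT library, and Isl1, Alox5ap, Manf, Herpud1 and Hspa5 were lower in every KO library, while Neurog3, Chga, Zg16 and Myc overlap.

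The unfolded protein response expands the folding capacity of the ER. In KO stem cells 7 of its 31 tested genes were lower at p under 0.05 (22.6%, against 4.98% of all genes) and none was higher, with a median of -0.14. Manf, a secreted ER chaperone, was at 74.5, 63.9, 63.8, 60.02 and 95.1 CPM in WT and 52, 34.7, 45.5, 41.7 and 45.8 in KO libraries (-0.70 ± 0.14). Herpud1 was at 245, 264, 351, 503 and 603 in WT and 124, 208, 175, 194 and 199.5 in KO (-1.13 ± 0.23), and Hspa5 at 590.3, 608, 619, 526 and 541 in WT and 482, 459, 438, 389 and 395 in KO (-0.41 ± 0.09). For these 3 genes every KO library lay below every WT library, and DESeq2 called all 3 (adjusted p = 0.00119, 0.014 and 0.00195). Hspa5 and Herpud1 are the genes whose ERSE and ERSE-II are printed above. Canx, which has an ERSE, was lower too (-0.86). The other members with an ERSE were at p of 0.05 or above. Derl3 stood at -0.58, Syvn1 at -0.31, Creld2 at -0.14, Calr at -0.11, Pdia6 at -0.08, Hsp90b1 at -0.07 and Dnajc3 at 0.04. Dnajb11, which has an ERSE-II, was at -0.27, also at p of 0.05 or above. The factor Xbp1 differed by -0.28 ± 0.12 and the stress factor Ddit3 by -0.27 ± 0.26. The count was 11 without WT mouse 7. The mean log2 CPM of the list was 5.75, 5.56, 5.45, 5.27 and 5.51 in WT and 5.38, 5.13, 5.29, 5.30 and 5.29 in KO libraries; secretory cells use this pathway heavily, and the part of the lower secretory transcripts in this difference was not tested.

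Genes known to respond to tissue dissociation and heat shock were lower in 8 of 39 cases (20.5%) and higher in none, with a median of -0.11. That median was positive without WT mouse 1 or WT mouse 6, at most 0.06, and -0.251 without WT mouse 7, and 2 members were higher without WT mouse 1. Dnaja1, a co-chaperone of Hsp70, was at 292, 261, 309, 322 and 362 CPM in WT and 254, 242, 207, 171 and 216 in KO libraries (-0.50 ± 0.12), with no overlap. Gadd45b differed by -0.61 ± 0.19 and the chaperone Hspa1a by -1.16 ± 0.49, while the immediate early genes Fos and Jun stood at 0.15 ± 0.35 and -0.02 ± 0.27. The list's mean log2 CPM ranged more widely in WT, from 4.83 to 6.25, than in KO libraries, from 5.28 to 5.71. Cell handling moves these genes, and its part in the other differences was not tested.

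The stem cell programme itself showed few differences. Of 37 stem cell genes 3 were higher and 1 lower at p under 0.05, with a median of 0.02. Without WT mouse 1 these counts were 5 and 4, without KO mouse 2 there were 5 higher, without KO mouse 3 there were 3 lower and without WT mouse 7 there were 2, and the median ran from -0.03 to 0.06. Lgr5 was at 95.7, 103, 147, 123 and 94.7 CPM in WT and 101, 129, 130.5, 117 and 109 in KO libraries (0.06 ± 0.12), fully overlapping. Olfm4, a secreted stem cell marker, differed by 0.08 ± 0.11, and the stem cell factor Ascl2 by -0.33 ± 0.11. Lrig1, which restrains growth factor receptors, was at 98.9, 75.1, 102, 89.6 and 87.1 in WT and 108, 119, 113, 114 and 112 in KO libraries (0.32 ± 0.09), each above every WT library, and the adhesion receptor Cd44 stood at 0.29 ± 0.09.

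Among 35 Wnt genes 1 was higher and 5 were lower (14.3%), with a median of 0.02, and the lower members include growth regulators. Myc, a transcription factor of growth, was at 82.4, 132, 165, 187 and 119 CPM in WT and 71.8, 93.6, 71.3, 88.4 and 89.3 in KO libraries (-0.72 ± 0.18); WT mouse 1 lay within the KO range. Cyclin D2 (Ccnd2), which drives cells through G1, was at 854, 942, 824, 990.0 and 882 in WT and 775, 627, 636, 562 and 766 in KO libraries (-0.42 ± 0.10), each below every WT library. The co-repressor Tle1 differed by -0.63 ± 0.17. DESeq2 called these 3 genes and none of the remaining 32. The feedback inhibitor Axin2 stood at 0.02 ± 0.10, the signal carrier Ctnnb1 at 0.04 ± 0.08 and its partner Tcf7l2 at 0.07 ± 0.12. The number of lower members was 8 without WT mouse 1 or WT mouse 7, and that of higher members 3 without WT mouse 1 and 2 without WT mouse 6 or KO mouse 6. In the Notch list 1 of 30 genes was higher and 2 lower, or 4 lower without WT mouse 7 and 0 without WT mouse 1 or KO mouse 4; the receptor Notch1 stood at 0.05 ± 0.13, the ligands Dll1 and Dll4 at -0.26 ± 0.11 and -0.47 ± 0.19, and the feedback gene Nrarp at 0.48 ± 0.18.

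MHC class II genes, which present antigen to CD4+ T cells, were higher in KO stem cells: 5 of 8 at p under 0.05 (62.5%, against 4.81% of all genes), all 8 values positive and a median of 0.85. The invariant chain Cd74 was at 157, 188, 429.7, 86.8 and 183 CPM in WT and 391, 445, 834, 406 and 313 in KO libraries (1.19 ± 0.35). H2-Aa, an alpha chain, was at 14.3, 22, 67.8, 8.61 and 27.7 in WT and 60.5, 54.7, 175, 39.3 and 49.5 in KO (1.43 ± 0.50). WT mouse 6 was the highest WT library and KO mouse 4 the highest KO library for both, and the groups overlap through WT mouse 6. The peptide editor H2-DMb1 differed by 0.94 ± 0.33, the beta chain H2-Ab1 by 0.76 ± 0.36 and the master regulator Ciita by 0.47 ± 0.30. The count was 2 without KO mouse 4, and the median 1.29 without WT mouse 6. DESeq2 called none of the 8.

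Transcripts of lymphocytes, which the gate was meant to remove, were counted in the same libraries. Of 48 T cell and intraepithelial lymphocyte markers 11 were tested, with 1 higher, 1 lower, 10 positive values and a median of 0.62. There were 5 higher without KO mouse 6 and 3 without WT mouse 3. Their mean log2 CPM was 2.02, 2.22, 1.12, -0.46 and 0.97 in WT and 1.79, 2.19, 2.03, 2.68 and 0.37 in KO libraries, lowest in WT mouse 7 and highest in KO mouse 5. Cd3g, part of the T cell receptor complex, was at 0.661, 1.61, 0.489, 0.147 and 0.392 CPM in WT and 1.60, 2.52, 1.18, 1.45 and 0.251 in KO (1.07 ± 0.59). The protease Gzmb differed by 1.03 ± 0.66, Cd7 by 0.62 ± 0.54, the granule protein Nkg7 by 1.28 ± 0.60, the kinase Lck by 0.32 ± 0.14 and the adaptor Fyb by -1.12 ± 0.35. Lck was the 1 higher and Fyb the 1 lower member. Lck did not follow Cd3g: it was at 10.3 CPM in WT mouse 7, where Cd3g was lowest. Its WT mean was 9.95 in GFP-high and 3.27 in GFP-low cells. Ptprc, Cd3e, Cd8a and Itgae are not analysed here. Of 23 myeloid markers 6 were tested, 2 higher and none lower, with list means from 2.67 to 3.31 in WT and from 2.94 to 3.57 in KO libraries. The part of such cells in the MHC class II difference was not tested.

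In the MHC class I list 10 of 27 genes were higher (37.0%) and 1 was lower, with a median of 0.18 and 5 members above every WT library. The proteasome subunit Psmb9 was at 28.6, 32.5, 34.6, 32.3 and 35.4 CPM in WT and 45, 36.7, 57.5, 45.2 and 40.3 in KO libraries (0.46 ± 0.12), and the peptide transporter Tap1 at 24.2, 22.3, 29.4, 20.8 and 28.7 in WT and 31.9, 34.1, 44.2, 35.6 and 30.8 in KO (0.50 ± 0.13). Both were higher in every KO library than in any WT library, and they were the 2 members that DESeq2 called. The light chain B2m differed by 0.15 ± 0.13, the heavy chain H2-K1 by -0.15 ± 0.10 and the chaperone Canx by -0.86 ± 0.24, its KO mouse 6 far above the other KO libraries. Canx, the 1 lower member, is also counted among the lower unfolded protein response genes. The count of higher class I members was 6 without WT mouse 7. Interferon response genes were higher in 5 of 50 cases, or 9 without WT mouse 6, and lower in none (median 0.15), and epithelial innate defence genes in 5 of 30 with none lower (median 0.06), or in 2 without KO mouse 3 and 3 without WT mouse 7, WT mouse 8 or KO mouse 6.

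Adhesion genes bear on the E-cadherin contact of the beta 7 integrin. E-cadherin (Cdh1) differed by 0.13 ± 0.07, alpha catenin (Ctnna1) by -0.03 ± 0.08 and the desmosomal cadherin Dsg2 by 0.19 ± 0.10. Of 20 adherens junction genes 2 were higher and none lower, Arvcf (0.34 ± 0.14) and Pkp4 (0.21 ± 0.09), both relatives of p120 catenin; 1 was higher without WT mouse 3, 6, 7 or 8 or KO mouse 5 or 6, and 0 without KO mouse 2. Of 12 integrin subunits in the table none had a p under 0.05, although 11 values were positive with a median of 0.12. Itgb1, the most shared beta chain, stood at 0.12 ± 0.09, with Itga1 at 0.12 ± 0.11, Itga2 at 0.26 ± 0.17 and Itga5 at 0.41 ± 0.30.

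The remaining lists are given by their counts at p under 0.05. Ribosomal protein genes were 1 lower of 79 (median -0.09, 74 negative), but 14 without WT mouse 3 (median -0.165). Oxidative phosphorylation genes were 4 lower of 75 (median -0.01), or 7 without WT mouse 1, and mitochondrially encoded genes 0 of 13. Cholesterol synthesis genes were 1 higher of 25 (median 0.15), or 6 without WT mouse 3 and 0 without WT mouse 1, WT mouse 6 or KO mouse 2, 5 or 6. Fatty acid oxidation and PPAR target genes were 1 higher and 4 lower of 32 (median -0.11). Their lower members numbered 9 without WT mouse 1, 1 without WT mouse 7 or KO mouse 4, and 2 without WT mouse 6, WT mouse 8 or KO mouse 6. Regenerative genes were 1 higher of 10, and intestinal identity factors 1 higher and 1 lower of 23. Of 20 stromal and endothelial markers 2 were tested and 1 was lower. In these last 3 lists the counts lay between 0 and 2 when 1 library was left out. Genes within 20 Mb of Itgb7 (chr15:102215995-102231944, GRCm38) were 10 higher and 8 lower of 168, with a median of 0.01. Over all genes 4.81% were higher and 4.98% lower. Directions were uneven along this stretch, as seen after the values were known and given with no test. The starting point given next was picked from those values. From chr15:99029891 on, Tuba1c, Troap, Bcdin3d, Racgap1, Mettl7a1, Zfp740, Aaas and Map3k12 were higher and only Gpd1 was lower. Zfp740, which ends at 102215606 next to Itgb7, differed by 0.20 ± 0.08. Other near neighbours were at p of 0.05 or above: Csad (-0.16 ± 0.10), Soat2 (0.07 ± 0.19), Mfsd5 (-0.16 ± 0.14) and Espl1 (0.19 ± 0.12). Racgap1 also stands in the G2 and mitosis list.

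The single genes with the smallest p were of varied function. Ss18l2 (chr9:121710329-121713388, GENCODE on GRCm38) was at 54.6, 56.4, 56.3, 50.7 and 66.1 CPM in WT and 86.8, 92.4, 119, 85.3 and 74.2 in KO libraries (0.69 ± 0.12), and in GFP-low cells the difference was 0.64 ± 0.16. Zkscan7, a zinc finger gene (chr9:122886818-122898619, RefSeq on GRCm38.p6), was at 2.08, 2.66, 2.35, 3.49 and 2.00 in WT and 3.99, 6.76, 8.89, 7.35 and 5.27 in KO (1.35 ± 0.24). For both genes every KO library exceeded every WT library. Nfib, a nuclear factor I transcription factor, was at 196, 149, 146, 165 and 222 in WT and 271, 249, 344, 247 and 318 in KO (0.70 ± 0.13). The ephrin Efna1, a ligand of Eph receptors that sort crypt cells, was at 230.5, 192, 238, 200.3 and 217 in WT and 297, 281, 279, 289.8 and 277 in KO (0.40 ± 0.08). All KO libraries lay above all WT libraries for this pair too. Shcbp1 and the telomere maintenance gene Ctc1 differed by 0.54 ± 0.11 and 0.43 ± 0.09.

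Among lower genes, Tm4sf4, a membrane protein of the tetraspanin-like L6 family, was at 91.2, 83.8, 101, 61.1 and 84.1 CPM in WT and 44.1, 41.8, 60.5, 55.8 and 41 in KO libraries (-0.79 ± 0.14). Banp, a chromatin-binding factor (chr8:121949750-122029258), was at 52.8, 55.3, 71.4, 80.6 and 90.1 in WT and 47.7, 28.6, 28.5, 19.2 and 19.5 in KO (-1.29 ± 0.23). The groups were apart for both genes, with KO mouse 2 the highest KO library for Banp. Without KO mouse 2, Banp passed edgeR's test with an adjusted p of 0.0170, the only such call when 1 library was left out. Chst2, a sulfotransferase, was at 4.10, 6.85, 15.2, 11.4 and 10.9 in WT and 4.92, 2.89, 3.05, 2.16 and 2.87 in KO (-1.61 ± 0.32), with overlap at WT mouse 1 and KO mouse 2. Fam57a was at 12.6, 14.9, 13.7, 12.1 and 16 in WT and 8.25, 9.70, 8.65, 6.81 and 9.18 in KO (-0.70 ± 0.13). Ttr, a thyroid hormone carrier, and Srp19, part of the signal recognition particle, differed by -0.49 ± 0.10 and -0.51 ± 0.10.

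GFP-low cells were sorted from the same mice, and the GFP-high and GFP-low libraries of a mouse deviated together from their group means (r from 0.169 to 0.625 over the 10 mice). The values of the 2 populations are therefore not independent and are set side by side. In GFP-low cells 345 genes (2.93%) were higher and 399 (3.39%) lower at p under 0.05, and 1 gene, Arhgef10, passed edgeR's adjusted threshold (0.00849%). Arhgef10, chosen after its values were seen, differed by -2.30 ± 0.21 in GFP-low and -1.56 ± 0.34 in GFP-high cells. Banp differed by -1.36 ± 0.30 in GFP-low cells, Nfib by 0.63 ± 0.14, Myc by -0.71 ± 0.18 and Nek2 by 0.55 ± 0.12.

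The lists of main interest had these values in GFP-low cells. G2 and mitosis genes were 23 higher and 0 lower of 69 in GFP-low cells (median 0.27), and MHC class II genes 4 higher of 8 (median 0.91). The enteroendocrine median was -0.02 in GFP-low against -0.94 in GFP-high cells, with 0 of 23 genes at p under 0.05. For goblet genes the GFP-low median was 0.04 with 1 of 27 lower, for tuft genes -0.26 with 0 of 16 lower and for secretory fate factors -0.00 with 1 of 20 lower. The lower factor was Atoh1, at -1.25 ± 0.41 in GFP-low and -0.72 ± 0.32 in GFP-high cells. Paneth genes had 9 of 35 lower in GFP-low cells with a median of -0.76, and absorptive enterocyte genes were 13 of 40 lower (median -0.34).

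**Figure D4:**
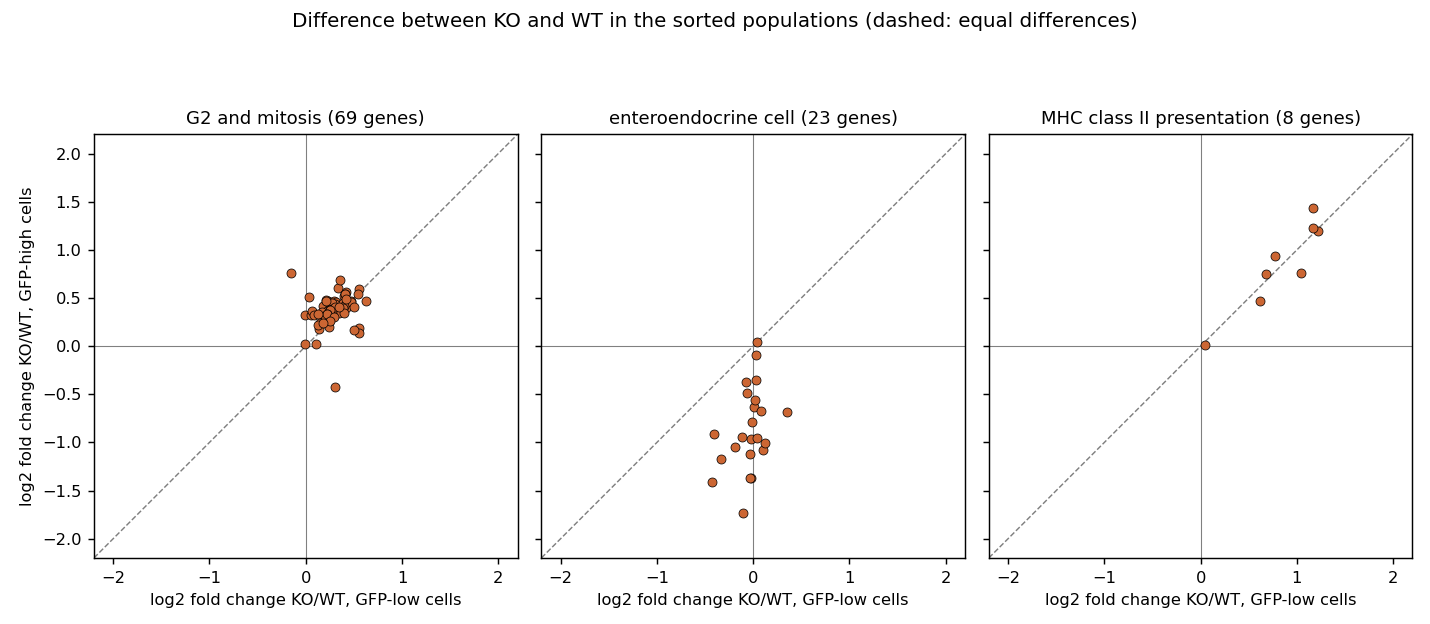
Log2 fold change of KO over WT for the genes of 3 lists, in GFP-high cells (vertical) against GFP-low cells (horizontal), with a dashed line of equal change. Most enteroendocrine genes lie below the line, with medians of -0.94 and -0.02, while the medians of G2 and mitosis genes (0.38 and 0.27) and of MHC class II genes (0.85 and 0.91) are closer together.

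The difference between the KO effects was tested gene by gene over all 20 libraries with an edgeR interaction. Of 11284 genes 0 (0%) passed the adjusted threshold and 353 (3.13%) had an unadjusted p under 0.05. With a replicate block of mouse, which pairs the populations, 776 had an unadjusted p under 0.05 and again 0 passed, with a smallest edgeR adjusted p of 0.649. Without the block, Isl1 differed between populations by -1.35 ± 0.43 (unadjusted p = 0.00515), Neurog3 by -1.18 ± 0.48 (unadjusted p = 0.0227) and Alox5ap by -1.75 ± 0.62 (unadjusted p = 0.01). With the block their unadjusted p was 0.00557, 0.0537 and 0.00988, and none of them passed adjustment in either fit. The smallest p without the block belonged to Egfl7, a secreted factor of vessels, at -0.40 ± 0.23 in GFP-high and 1.08 ± 0.27 in GFP-low cells. Next came the prefoldin-like Uri1 (0.33 ± 0.08 and -0.26 ± 0.12), Fam57a (-0.70 ± 0.13 and 0.07 ± 0.16), Slc4a1ap (0.15 ± 0.13 and -0.44 ± 0.13) and 2900026A02Rik (0.14 ± 0.09 and -0.31 ± 0.11), and each of these 5 genes had an edgeR adjusted p of 0.9996.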

How the data were processed

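GFP-high and GFP-low libraries each have a table of expected counts, deposited by the authors; column totals differ and show no scaling. Per the submitters' processing notes, the tools were TopHat2, Bowtie2 and RSEM and the build mm10. Their versions, their roles and the strand of the reads were not given in the sources used here. Reads that match several genes are split among them by RSEM. Without strand, reads of a gene and of an overlapping or antisense partner could not be separated. No entry had a mean count under 17.0, and rarer transcripts were not analysed here. Rounding to whole counts touched 13.7% of values. Spreadsheet conversion had altered 16 names to dates, and 34 entries shared a name.

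KO was compared with WT over the 10 GFP-high libraries with edgeR 4.0.16 (R 4.3.3): TMM factors, filterByExpr at a minimum count of 10, which left out 1 entry, the quasi-likelihood test and Benjamini-Hochberg adjustment at 0.05, with no block. The SE comes from the F statistic. CPM use TMM-scaled totals, and list means are of log2 CPM with a prior count of 2. DESeq2 1.42.0, limma 3.58.1 (voom), sva 3.50.0, library totals, other filters, a replicate block and leaving out each library were alternatives. Positions are from GENCODE M21 (11578 unique matches). Groups overlap where their CPM ranges do. GFP-high libraries of WT and KO mice with the same number did not deviate together (r of -0.0768 and -0.0883 for mice 3 and 6). The labels do not say what a number marks, and so few pairs cannot show whether it was shared. GFP-high and GFP-low libraries of a mouse deviated together (r from 0.169 to 0.625).

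Named genes were Lgr5, the 10 higher and 10 lower genes with the smallest p (gene models, pseudogenes and sex chromosome genes left out), the first 3 members and the 3 with the smallest p of each list described, and 5 interaction genes. The comparison, members and lists were chosen with earlier results of these data known. In simulated counts for this comparison (11744 genes, 200 changed), 2% of genes changed 1.25-fold were recovered. Recovery was 52% at 1.5-fold, 92% at 2-fold and 100% at 3-fold, with 8 false calls. Changed genes were taken only from those with a mean above 5 CPM. Each gene was drawn on its own, without shifts shared by the genes of a library. Recovery of rarer genes, or under such shifts, was not simulated.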

Additional observations from a re-analysis of the deposited data

Results flagged for a closer look

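In groups of 5, a library was marked when its gap to the nearest other library was a larger part of the group's range than Dixon's 95% value of 0.71. Of 214 groups tested over the named genes 16 were marked, and chance marks about 5%. KO mouse 5 was marked 6 times, in genes of secretory cells and always as the highest KO library: Spdef 64 CPM (next 30.4), Neurog3 31.1 (next 19.9), Chga 43.6 (next 23.4), Muc2 449 (next 219), Tff3 1010 (next 558) and Rep15 46.2 (next 27.4). KO mouse 4 was marked 4 times as the highest KO library, for the MHC class II genes Cd74 at 834 CPM (next 445), H2-DMb1 at 97.3 (next 51.5) and H2-Aa at 175 (next 60.5) and for the cyclin Ccnb2 at 206 (next 182). WT mouse 6 was the highest WT library for H2-DMb1, at 58.6 CPM (next 27.9).

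WT mouse 7 was marked 3 times: Olfm4 4150 CPM (next 3120), Cdh1 377 (next 338) and Itga1 23.9 (next 21.7). Single marks were those of Tle1 in KO mouse 2 at 22.9 CPM (next 17.7) and Canx in KO mouse 6 at 869 (next 472). The cause of these values was not tested.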

How the results depend on the processing

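The number of genes at an adjusted p under 0.05 was 0 in edgeR with TMM, library totals, no filter, a floor of log2 CPM 3, robust fitting, 1 surrogate variable or all 20 libraries, and 0 with limma voom. DESeq2 gave 143. The replicate block of label numbers gave 122 (35 higher, 87 lower), with 1 residual degree of freedom. The labels do not say what the numbers mark, and same-numbered WT and KO libraries did not deviate together. Under this block 359 genes were higher at p under 0.05, 25 of them in the G2 and mitosis list. Leaving out 1 library gave 0 to 1 calls, 428 to 669 higher and 482 to 708 lower genes at p under 0.05. The interaction count of 353 was 776 with a replicate block of mouse and 218 (without WT mouse 3) to 469 without 1 mouse. The median of the tuft cell list was -0.116 at the log2 CPM floor of 3, and with the replicate block the median of the interferon response list was -0.00649 and the median of the regenerative and fetal epithelium list -0.408.

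Of 2006 values of 107 genes under alternatives, 36 changed sign, in 16 genes. With the replicate block these were Lgr5 (-0.0543), Axin2 (-0.0355), Notch1 (-0.128), Pou2f3 (-0.709), Lyz1 (0.494), Defa24 (0.332), Pcna (0.0162), Mcm5 (0.06), Fos (-0.298), Gzmb (-0.0708) and Cd7 (-0.981). With voom they were Axin2 (-0.011), Notch1 (-0.0288), Lyz1 (0.137) and Jun (0.121), and with library totals Ctnna1 (0.00217) and Jun (0.0242). Without 1 library the ranges were -0.517 to 0.0432 for Gfi1, -0.0292 to 0.0967 for Axin2, -0.0122 to 0.164 for Tcf7l2, -0.0656 to 0.14 for Notch1, -0.305 to 0.315 for Lyz1, -0.395 to 0.0538 for Defa24, -0.382 to 0.037 for Mmp7, -0.0815 to 0.428 for Fos and -0.201 to 0.245 for Jun. The cause was not tested. Genes at few CPM, such as Cd3g, carry more counting error, and changes under 1.5-fold were mostly missed in simulated data.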

Other observations

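Genes on one stretch of chromosome 9 were often among those at an unadjusted p under 0.05, a pattern chosen after the values were seen and given with no test. The genome was divided into 2 Mb bins, of which 420 held at least 10 tested genes; in the median bin 9.09% of genes were at p under 0.05. The highest share was 8 of 17 genes (47.1%) in the bin chr9:120000001-122000000 on GRCm38, 6 of them higher and 2 lower in KO GFP-high cells, and it was the only bin at 40% or more. Higher genes were the trafficking gene Sec22c (0.76 ± 0.20), Zfp651 (0.92 ± 0.28), Nktr (0.30 ± 0.13), Trak1 (0.21 ± 0.08), C230053D17Rik (1.22 ± 0.43) and Ss18l2 (0.69 ± 0.12). Lower genes were Pomgnt2, a glycosyltransferase of dystroglycan (-0.66 ± 0.14), and the peptide receptor Vipr1 (-0.44 ± 0.16). In GFP-low cells 1 of 16 genes of the bin was at p under 0.05, Ss18l2. On one side, the adjoining bin chr9:122000001-124000000 had 4 of 19 genes (21.1%), all higher, among them Zkscan7 and the mitotic kinesin Kif15 (0.54). On the other side, the adjoining bin chr9:118000001-120000000 had 1 of 14 genes (7.14%), which was lower, a share below that of the median bin. Ctnnb1, which lies in the bin with the highest share, stood at 0.04 ± 0.08. Itgb7 lies on another chromosome, 15, where 18 genes were higher and 22 lower at p under 0.05 of 437 tested.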
